A study of Homo sapiens with 6 samples.

Results

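The GADD45 stress gene family was followed on 6 expression arrays of RPMI-8402, a human cell line from a T-cell leukaemia. The members were GADD45A, GADD45B, GADD45G and GADD45GIP1, taken as every non-control probe whose RefSeq accession in the scanner files named 1 of these 4 genes in the RefSeq gene table, out of 19721 genes that were named in this way. They were measured by 5 of the 57176 probes of the array, 2 of them for GADD45G. The set was chosen on its measured values, because GADD45G had the largest rise of all named genes on the shGATA3-labelled arrays, so the values of the 4 genes against control on those arrays, and of GADD45G between those arrays and any others, are descriptions and carry no test.

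Lentivirus carried into the cells a control construct (control), a short hairpin RNA meant to silence GATA3 (shGATA3), or 1 meant to silence TCF7, the gene that encodes TCF1 (shTCF1). All of them were harvested after 48 h and sorted for EGFP, so that a group holds only cells that took up the virus. Each group had 2 arrays, numbered as replicates in the sample titles, and the labels do not say whether replicates came from separate transductions. The study calls them independent experiments. The study compared these groups to ask what the knockdown of each of these T-lineage transcription factors does to the expression programme of a T-cell line. A single leukaemia line and, as far as the labels tell, a single hairpin for each gene limit how far the groups stand for T-cell precursors.

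GADD45A, GADD45B and GADD45G are small, acidic, mostly nuclear proteins without enzyme activity, which are induced by DNA damage, cytokines and other stress. They bind and activate the kinase MAP3K4 upstream of p38 and JNK, hold CDK1 and cyclin B1 in check at the G2/M transition, bind PCNA and the inhibitor p21, and are known for a part in active DNA demethylation with TET enzymes and TDG. In T cells GADD45B and GADD45G are known for sustaining p38 signalling and interferon-gamma production after IL-12 and IL-18. GADD45GIP1 is a different kind of protein: it was named for binding the GADD45 proteins and is also a component of the large subunit of the mitochondrial ribosome.

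Levels below are log2 intensities after variance stabilizing normalization (VSN), which puts the arrays on a common scale, so that a difference of 1 is a 2-fold change at high signal. A probe was called changed when limma's adjusted p was below 0.05 over the 31183 probes tested. All 5 GADD45 probes passed the filter on dim probes. Across the arrays 51.2% to 56.3% of probes were well above background and 0 were saturated. The unscaled 75th percentile of the signal was higher on the control arrays, which were 1.59 times as bright as the shGATA3 arrays and 1.62 times as bright as the shTCF1 arrays, and the file headers give the control arrays another position index on the single slide than all hairpin arrays. A second position index kept the hairpin groups apart, at 3 and 4 for the shGATA3 arrays and 1 and 2 for the shTCF1 arrays. Position and group therefore cannot be told apart in any comparison, of hairpin with control or between the hairpins.

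The targeted genes were read first. TCF7 was lower on the shTCF1 arrays than on the control arrays by both of its probes (differences -1.31 and -1.48, limma adjusted p = 0.00394 and 0.00462). GATA3 did not follow its label: its probe read 9.46 and 9.55 on the shGATA3 arrays against 9.54 and 9.56 on the control arrays, a difference of -0.05 (limma adjusted p = 0.795). The 2 groups overlapped. The libraries are therefore called by their label throughout, and no direction below is attributed to a loss of GATA3 transcript. Of 12 markers of T-lineage leukaemia, 11 were well above background on all arrays and the other, CD1A, was above it on both shGATA3-labelled arrays and on none of the others. Of the markers of other cells, those well above background on all arrays were 3 of 6 for B cells, 5 of 6 for myeloid cells, 2 of 7 for NK cells (4 on none), 4 of 5 for the erythroid and megakaryocyte lineages and 4 of 5 for embryonic kidney packaging cells, counting markers with a probe. The normalized signals of the tested T-lineage markers summed to 71500 to 93900 on an array. The sums were 2000 to 5490 for B cells, 932 to 1310 for myeloid cells and 194 to 348 for NK cells. They were 678 to 963 for the erythroid and megakaryocyte lineages and 2840 to 3160 for embryonic kidney packaging cells. The lists differ in number of markers, and the part of other cells in the results was not tested.

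GADD45G, the member best known for its induction by cytokines in lymphocytes, had the largest differences from control of the family in both hairpin groups, with opposite signs. The core promoter letters of GADD45G and GADD45B are shown because these are the pair with a like makeup just upstream of the start. The signs of their differences were opposite after scaling between arrays, and a link with the letters was not tested. The 250 bases before the RefSeq start of each gene (plus strand of GRCh38.p14, from RefSeq) are chr9:89604762-89605011 for GADD45G and chr19:2475877-2476126 for GADD45B, printed from 5′ to 3′, with capitals for matches to the motifs searched.
GADD45G: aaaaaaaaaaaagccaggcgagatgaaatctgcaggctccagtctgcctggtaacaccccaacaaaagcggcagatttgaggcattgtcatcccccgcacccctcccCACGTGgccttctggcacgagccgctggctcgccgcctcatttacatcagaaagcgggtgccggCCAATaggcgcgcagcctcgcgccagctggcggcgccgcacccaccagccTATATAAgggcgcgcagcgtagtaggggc
GADD45B: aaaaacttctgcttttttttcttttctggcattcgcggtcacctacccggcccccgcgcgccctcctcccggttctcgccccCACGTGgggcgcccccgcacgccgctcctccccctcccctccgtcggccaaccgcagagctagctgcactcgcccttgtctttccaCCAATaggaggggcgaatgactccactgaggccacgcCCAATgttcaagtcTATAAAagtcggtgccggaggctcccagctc

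The windows were searched on both strands for common promoter letters and for those of the silenced factors. The first was CACGTG, an E-box. The second was CCAAT, which is bound by NF-Y. A TATA box was written as TATAAA, and the form TATATAA was counted as well. Of the motifs read by GATA factors, AGATAA was searched first. The related forms searched were AGATAG and, with the other first base, TGATAA. The last of these forms was TGATAG. For TCF/LEF factors the letters were CTTTGAT, and the form CTTTGAA was counted as well. No motif overlapped another in the printed sequences. In the GADD45G window CACGTG began 143 bases before the start, CCAAT 79 bases before it and a TATA box 29 bases before it. In the GADD45B window CACGTG began 168 bases before the start, CCAAT 82 and 45 bases before it and a TATA box 31 bases before it. Both genes thus had the same order of letters from E-box to TATA box.

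Of the 35116 RefSeq promoter windows of the same length, 6.34% held CACGTG, 32.0% held CCAAT and 11.8% held a TATA box. All 3 stood together in 52 windows, or 0.148%; this combination was counted after the matches had been seen. GATA letters were in 22.3% of windows and TCF/LEF letters in 5.94%, and neither was in the windows of GADD45G, GADD45B or GADD45GIP1. The window of GADD45GIP1 held a TATA box 138 bases before the start and none of the other motifs. G and C made up 61.6% of the GADD45G window, 63.2% of that of GADD45B and 50.4% of that of GADD45GIP1, against a median of 58.0% over all windows. The CpG pairs numbered 20, 21 and 11, against a median of 11. A match describes these letters only, and an absent match says only that the letters are not in this window.

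On the main GADD45G probe (A_33_P3252394) the log2 level was 6.83 and 7.12 on the control arrays, 11.27 and 11.36 on the shGATA3-labelled arrays, and 5.08 and 5.56 on the shTCF1 arrays. The 3 groups did not overlap: both shGATA3-labelled arrays lay far above the control arrays and both shTCF1 arrays below them. Such separation was common, since 60.2% of tested probes did not overlap between the shGATA3-labelled and control arrays, 66.8% between shTCF1 and control and 51.9% between the hairpin groups. The spread within a group was at most 0.34 (SD, n = 2), in the shTCF1 group, and was smallest on the shGATA3-labelled arrays (0.067). The same order was present before any scaling between arrays, with processed signals of 139.7 and 188.5 in control cells, 2115 and 2332 on the shGATA3-labelled arrays, and 26.6 and 35.5 on the shTCF1 arrays.

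**Figure D1:**
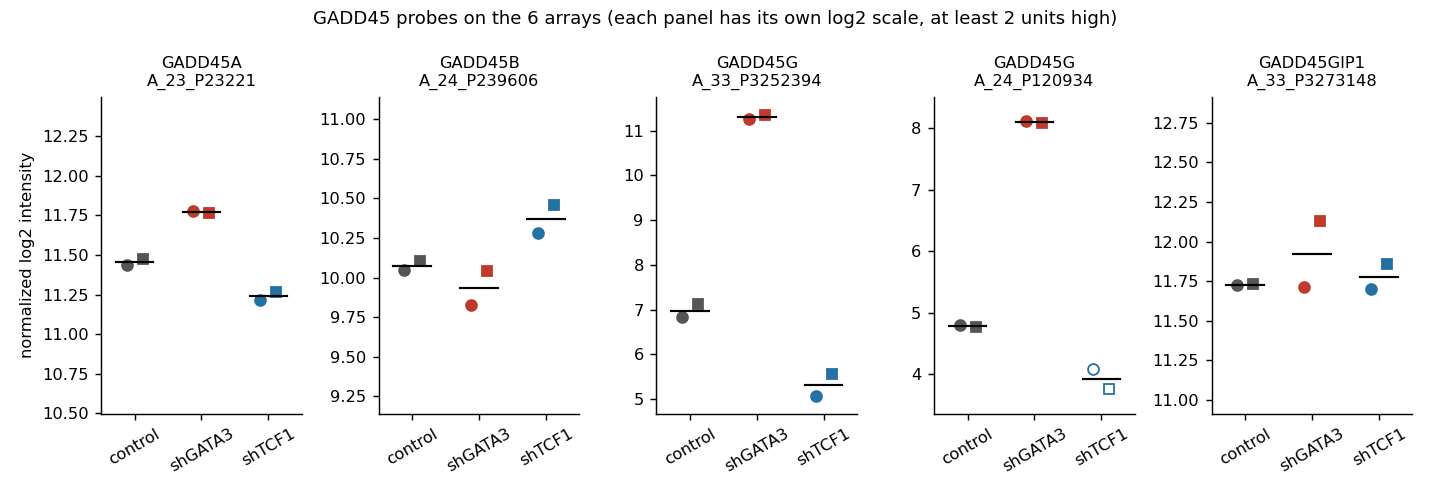
VSN-normalized log2 intensity (y axis, a scale of its own in each panel) of the 5 GADD45 probes on the control, shGATA3 and shTCF1 arrays (x axis). Circles are replicate 1, squares replicate 2, bars the group means, and open symbols spots not well above background. GADD45G rises to 11.27 and 11.36 on the shGATA3-labelled arrays and lies lowest, at 5.08 and 5.56, on the shTCF1 arrays, while the other genes stay within narrow ranges.

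As a description of what chose the set, the mean of GADD45G on the shGATA3-labelled arrays exceeded that of control by 4.34, or 20.2-fold. Of all probes tested in this contrast 6.82% were called. GADD45G ranked first among the rises of the 14533 named genes tested. The next rises were those of ARPP21 (3.68) and GZMB, the gene of the cytotoxic protease granzyme B (3.46). GADD45G also had the largest difference of any named gene between the shGATA3-labelled arrays and the shTCF1 arrays, 63.8-fold.

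The comparison of shTCF1 with control did not enter the choice of GADD45G, although it used the same control arrays. GADD45G was lower on the shTCF1 arrays by 1.66 (log2 difference -1.66, SE 0.189, a 3.16-fold decrease; 95% confidence interval -2.12 to -1.20; limma adjusted p = 0.00777). Of all probes tested in this contrast 16.9% were called and 9.71% were called lower, and GADD45G was the 80th largest of 14533 genes by the size of its difference. Its call remained under all 15 other ways of treating the scanner files, with differences from -1.90 to -0.87 and adjusted p from 0.000431 to 0.0365. An exact permutation test of 2 against 2 arrays cannot give a p under 0.333, so this call, like every other, depends on the variance that limma shares among probes.

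The second GADD45G probe (A_24_P120934) gave the same order. It read 4.81 and 4.77 on the control arrays, 8.12 and 8.08 on the shGATA3-labelled arrays, and 4.08 and 3.77 on the shTCF1 arrays. Neither shTCF1 spot was well above background, so the differences from shTCF1 are given as bounds on the VSN scale. There control exceeded shTCF1 at least 1.77-fold and the shGATA3-labelled arrays exceeded shTCF1 at least 17.6-fold. The test was of the unbounded difference of shTCF1 from control, -0.86 (limma adjusted p = 0.0139). With the normexp background correction the log2 difference between the hairpin groups was 2.15, so the bounds do not hold for other scales. Bounds compare the bright group with the lowest signal that is well above background on the dim arrays. The shTCF1 call of this probe was lost without control replicate 1 (adjusted p = 0.0755) or control replicate 2 (adjusted p = 0.0602), and with the normexp background correction (difference -0.20, adjusted p = 0.0884). The rise on the shGATA3-labelled arrays was 3.31 by this probe against 4.34 by the main one, so the 2 probes agreed in order and differed in size. In bulk samples, fewer cells that express a gene and less of its RNA per cell cannot be told apart.

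**Figure D2:**
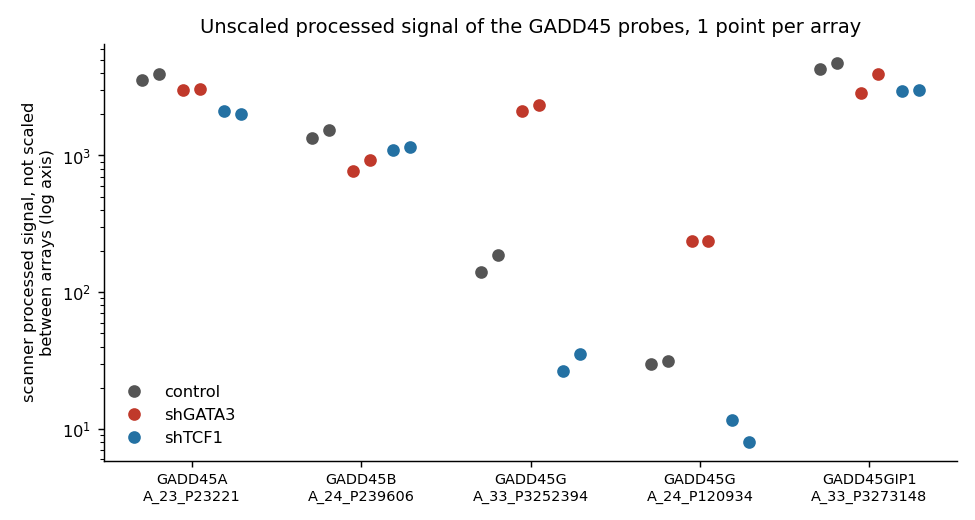
Scanner processed signal without scaling between arrays (y axis, log axis) for the 5 GADD45 probes (x axis), 1 point per array. Probes are not comparable with each other in level. The GADD45G order of shGATA3, control and shTCF1 is visible in the unscaled signal, whereas GADD45A, GADD45B and GADD45GIP1 are brightest on the control arrays, which were brighter throughout.

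GADD45A, a gene induced by DNA damage and the founding member of the family, followed the order of GADD45G at a much smaller scale. Its log2 level was 11.44 and 11.47 on the control arrays, 11.78 and 11.76 on the shGATA3-labelled arrays and 11.22 and 11.27 on the shTCF1 arrays. The 3 groups did not overlap and no group spread by more than 0.035 (SD, n = 2). Separation of this kind was found for 60.2% of tested probes between the shGATA3-labelled and control arrays. The share was 66.8% between shTCF1 and control and 51.9% between the hairpin groups. The mean on the shGATA3-labelled arrays was higher than in control by 0.32, a 1.25-fold difference given without a test.

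Between shTCF1 and control GADD45A differed by -0.21 (SE 0.095; 95% confidence interval -0.44 to 0.020), which did not pass the test (limma adjusted p = 0.170). Between the shGATA3-labelled arrays and the shTCF1 arrays it differed by 0.53 (SE 0.095), a 1.44-fold difference that passed narrowly (limma adjusted p = 0.0328). In that contrast 6.19% of all probes were called and 3.59% were called higher. This call of GADD45A was lost on leaving out any of the 6 arrays. It was kept in 6 of the 15 alternatives, with a difference of 0.48 to 0.55 throughout. Leaving out either control array is the same fit as using only the 4 arrays of the hairpin groups, so these alternatives are not separate. On the shGATA3-labelled arrays the direction against control depended on the scaling between arrays, and on the shTCF1 arrays it did not: unscaled, GADD45A gave 3539 and 3976 in control cells, 3022 and 3083 on the shGATA3-labelled arrays and 2118 and 2017 on the shTCF1 arrays.

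GADD45B, which is induced by TGF-beta and NF-kappaB signals, showed the reverse order. It read 10.04 and 10.11 on the control arrays, 9.82 and 10.04 on the shGATA3-labelled arrays and 10.28 and 10.46 on the shTCF1 arrays. The shTCF1 arrays were the highest, while shGATA3-labelled replicate 2 and control replicate 1 were all but equal. The difference between the shGATA3-labelled arrays and control was -0.14, given without a test. Unscaled, GADD45B gave 1344 and 1539 in control cells, 776 and 934 on the shGATA3-labelled arrays and 1106 and 1151 on the shTCF1 arrays. Its direction on the shTCF1 arrays against control therefore depended on the scaling between arrays.

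GADD45B on the shTCF1 arrays differed from control by 0.30 (SE 0.125; 95% confidence interval -0.011 to 0.60) and did not pass the test (limma adjusted p = 0.154). Between the shGATA3-labelled arrays and the shTCF1 arrays the difference was -0.44 (SE 0.125; limma adjusted p = 0.104), and it passed only when limma modelled the spread as a trend of intensity (adjusted p = 0.0317). After scaling between arrays, GADD45G and GADD45B had opposite signs of difference in each comparison, although those of GADD45B did not pass. A link of these signs with the letters of the upstream windows was not tested.

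GADD45GIP1 showed no difference beyond the spread of its replicates. Its log2 level was 11.72 and 11.73 on the control arrays, 11.71 and 12.13 on the shGATA3-labelled arrays and 11.70 and 11.86 on the shTCF1 arrays. A single array, shGATA3-labelled replicate 2, stood above the other 5, and the groups overlapped in every comparison. The differences were 0.19 against control for the shGATA3-labelled arrays, given without a test, 0.05 for shTCF1 against control (95% confidence interval -0.34 to 0.44; limma adjusted p = 0.839), and 0.14 between the hairpin groups (95% confidence interval -0.25 to 0.53; limma adjusted p = 0.642). Without replicate 2 of the shGATA3-labelled arrays the first became -0.015 and the last -0.067, and without shTCF1 replicate 2 the second became -0.025.

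**Figure D3:**
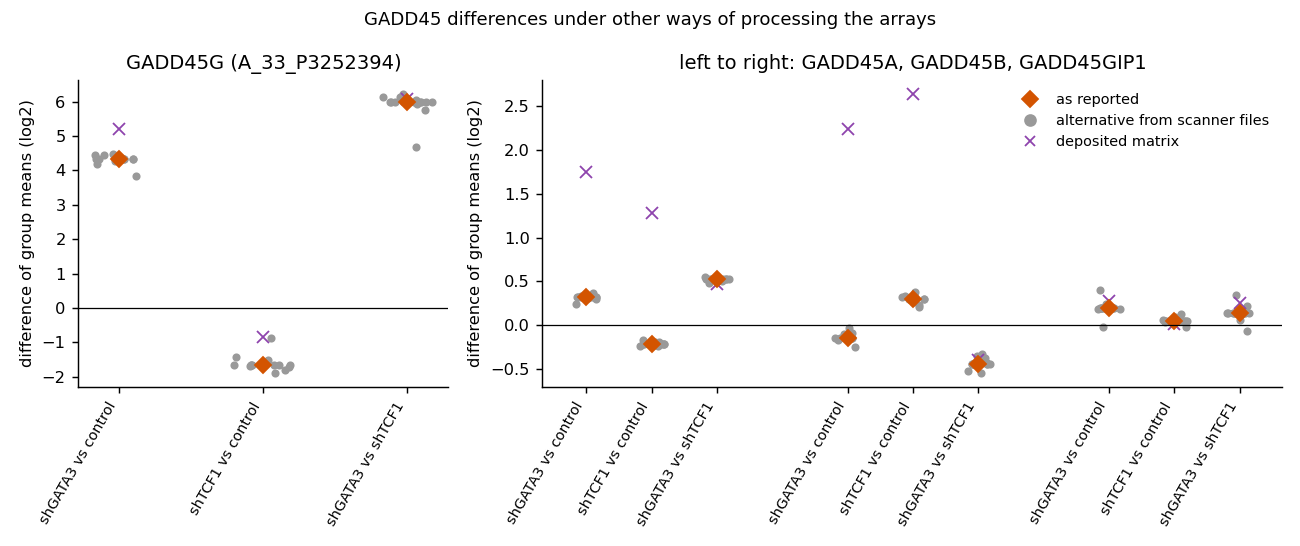
Log2 difference of group means (y axis) of each GADD45 gene in the 3 comparisons (x axis), as reported (diamonds), under 15 alternatives from the scanner files (circles) and in the deposited matrix (crosses). GADD45G keeps its sign in each comparison, and the deposited matrix moves GADD45A and GADD45B against control to differences of at least 1.28. Alternatives that change only the filter, the model of the spread, the replicate block or arrays outside a comparison equal the reported difference by construction.

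Among the 4 genes 1, GADD45G, was called in shTCF1 against control, where 16.2% of all named genes were. Of the 3 genes left to be tested between the hairpin groups 1, GADD45A, was called, where 6.59% of named genes were, and its call was lost in each of the 6 fits without 1 array. By levels on the 6 arrays, GADD45A and GADD45G had a Pearson r of 0.99, GADD45A and GADD45B of -0.848, GADD45B and GADD45G of -0.796, and GADD45GIP1 and GADD45G of 0.486. The 6 points fall into 3 groups and share their arrays, so these values only restate the order of the groups.

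The genes whose levels ran most like those of GADD45G over the 6 arrays were NKD2, an antagonist of Dishevelled in Wnt signalling, FAM110A, CSAG1, GALNT18 and the integrin subunit ITGB5, with Pearson r from 0.9938 to 0.9968 among 1210 genes whose level ranged over at least 1 log2 unit. NKD2 read 9.95 and 10.11 on the control arrays, 11.99 and 11.92 on the shGATA3-labelled arrays and 9.33 and 9.66 on the shTCF1 arrays. ITGB5 read 6.11 and 6.26, then 8.15 and 7.88, then 5.61 and 5.76 in the same order of groups. The means of both differed from control by 1.93 and 1.83 on the shGATA3-labelled arrays and by -0.53 and -0.50 on the shTCF1 arrays, given without a test because the genes were chosen by these levels.

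The levels closest in pattern to GADD45A were those of the sulfotransferase gene CHST12, the carboxypeptidase gene CPA4 and CXXC4, an inhibitor of Wnt signalling. CPA4 read 6.59 and 6.52 on the control arrays, 8.12 and 8.04 on the shGATA3-labelled arrays and 5.32 and 5.58 on the shTCF1 arrays, so that its range was wider than that of GADD45A. For GADD45B the closest were TAC4, PHF19, a Polycomb-associated protein, and RAB37. For GADD45GIP1 they were INCENP, a subunit of the chromosomal passenger complex, SPRR2C and COPS9. Under scaling by the 75th percentile 2 of the 5 genes near GADD45G, 1 of 3 near GADD45A, 2 of 3 near GADD45B and 0 of 3 near GADD45GIP1 were named again, so the choice of nearest genes depended on the normalization.

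The genes around the family were read from lists of its partners, inducers and fellow stress genes. Over all named genes 6.9% were called between the shGATA3-labelled arrays and control, 16.2% between shTCF1 and control and 6.59% between the hairpin groups, with median differences of -0.033, -0.048 and 0.0035. By direction, 2.79% were higher and 4.11% lower, 6.24% and 9.96%, and 3.77% and 2.82%. An unadjusted limma p below 0.05 was found for 3919, 4987 and 3331 of these 14533 genes. Those are the background for the unadjusted counts of the lists. Of 12 tested MAPK and cell cycle partners, 1 was lower on the shGATA3-labelled arrays than in control, 0 were called by limma for shTCF1 (2 at an unadjusted p below 0.05) and 0 between the hairpin groups (0 unadjusted). The gene that fell was MAPK14, the gene of p38 alpha, at 8.97 and 8.80 on the control arrays, 8.29 and 8.02 on the shGATA3-labelled arrays and 8.45 and 8.43 on the shTCF1 arrays. It differed from control by -0.73 on the shGATA3-labelled arrays (limma adjusted p = 0.0331), a call that was lost on leaving out any 1 array (adjusted p from 0.0510 to 0.173). These medians were -0.078, -0.066 and -0.077.

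Of the binding partners of the GADD45 proteins, MAP3K4, CDK1, CCNB1, PCNA and CDKN1A were not called in any comparison. MAP3K4 is the kinase that the GADD45 proteins activate. It read 10.67 and 10.81 on the control arrays, 11.13 and 10.11 on the shGATA3-labelled arrays and 11.08 and 11.003 on the shTCF1 arrays. Replicates of the shGATA3-labelled arrays lay on both sides of control. CDK1, CCNB1, PCNA and CDKN1A, the genes of the cell cycle proteins bound by the family, differed from control by -0.09, 0.12, -0.13 and 0.028 on the shGATA3-labelled arrays, and by -0.13, -0.0013, -0.23 and 0.22 on the shTCF1 arrays. CDKN1A, which encodes p21, read from 4.62 to 5.18 over all arrays.

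Among the inducers of the family, 15 were tested. On the shGATA3-labelled arrays 2 were lower than in control, on the shTCF1 arrays 1 was higher, and between the hairpin groups 3 were lower on the shGATA3-labelled arrays, with medians of -0.15, -0.09 and -0.030. FOXO1, a transcription factor of the forkhead family, read 7.74 and 7.78 on the control arrays, 7.16 and 7.20 on the shGATA3-labelled arrays and 8.20 and 8.35 on the shTCF1 arrays. It fell on the shGATA3-labelled arrays (-0.58, limma adjusted p = 0.0334) and rose on the shTCF1 arrays (0.51, adjusted p = 0.0274), and the groups differed by -1.09 (adjusted p = 0.00477). The call between the hairpin groups remained without any 1 array (adjusted p at most 0.0333), while each call against control was kept in 2 of the 6 such fits. This order was opposite to that of GADD45G.

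ATF3, a stress-induced transcription factor, read 12.18 and 12.20 on the control arrays, 11.57 and 11.60 on the shGATA3-labelled arrays and 12.20 and 12.40 on the shTCF1 arrays. It was lower on the shGATA3-labelled arrays than in control (-0.61, limma adjusted p = 0.0347) and than on the shTCF1 arrays (-0.72, adjusted p = 0.0203). SMAD3, a mediator of TGF-beta signals, was lower on the shGATA3-labelled arrays than on the shTCF1 arrays (-0.89, adjusted p = 0.0142). With 1 array left out, the ATF3 calls were kept in 2 and 3 of 6 fits and that of SMAD3 in 2. FOXO3 and ATF4 were not called in any comparison: FOXO3 differed from control by -0.19 and 0.040 and ATF4 by -0.15 and -0.099, for the shGATA3-labelled arrays and the shTCF1 arrays.

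Of 20 tested genes of the DNA damage response besides GADD45A, 2 were higher and 0 lower on the shGATA3-labelled arrays than in control, 1 was higher and 1 lower on the shTCF1 arrays, and 3 were higher and 0 lower on the shGATA3-labelled arrays than on the shTCF1 arrays. The medians were -0.022, -0.09 and 0.054. PLK2, a Polo-like kinase, had the order of GADD45G: it read 7.56 and 7.71 on the control arrays, 8.53 and 8.40 on the shGATA3-labelled arrays and 6.72 and 6.68 on the shTCF1 arrays. It rose by 0.83 against control on the shGATA3-labelled arrays (limma adjusted p = 0.0153), fell by 0.93 on the shTCF1 arrays (adjusted p = 0.00829) and differed by 1.76 between them (adjusted p = 0.00132). The last 2 calls remained under all 15 alternatives from the scanner files, and the first was kept in 10. Its relative PLK3 rose on the shGATA3-labelled arrays (0.67, limma adjusted p = 0.0184), and was higher there than on the shTCF1 arrays (0.64, adjusted p = 0.0195). Leaving out 1 array kept these PLK3 calls in 2 and 0 of 6 fits.

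ZMAT3, which encodes an RNA-binding protein, was higher on the shGATA3-labelled arrays than on the shTCF1 arrays by 0.82 (limma adjusted p = 0.0463). BTG2, an antiproliferative gene, rose on the shTCF1 arrays (0.54, adjusted p = 0.0320). The ZMAT3 call was kept in 0 and the BTG2 call in 2 of the 6 fits that left out 1 array. CDKN1A, a member of this list too, was not called in any comparison. BAX, named after its values were seen for the size of its difference, read 11.77 and 10.19 on the shGATA3-labelled arrays against 12.23 and 12.13 in control, so that its mean rested on 1 array (difference -1.20, limma adjusted p = 0.175).

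**Figure D4:**
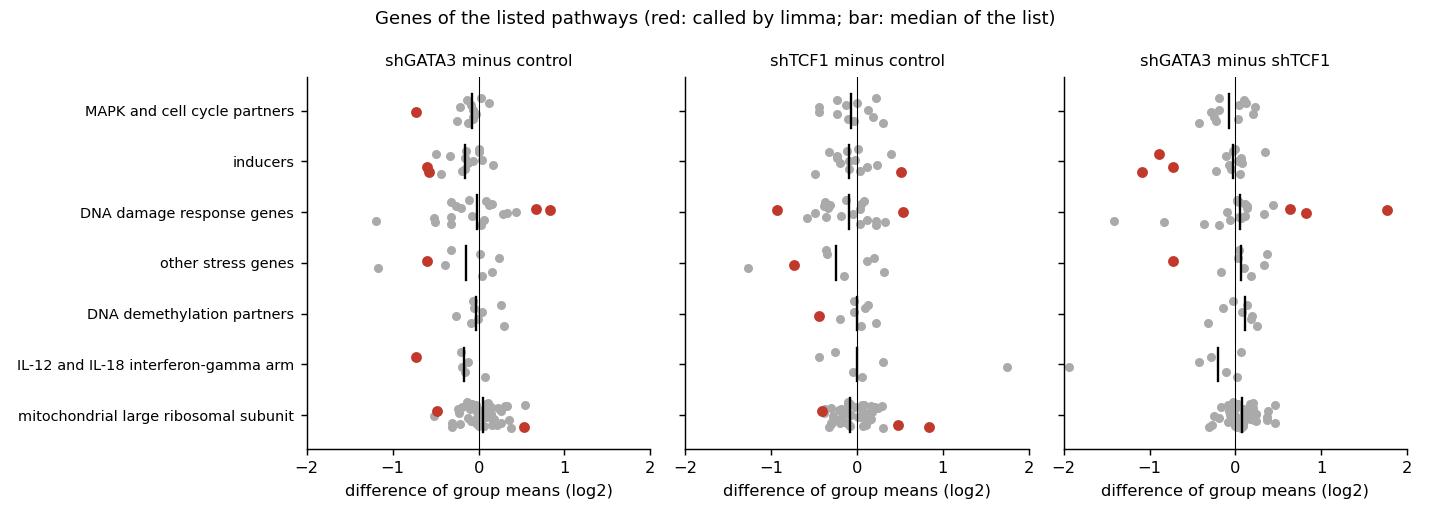
Log2 difference of group means (x axis) for the tested genes of each list (y axis) in the 3 comparisons. Points are genes, red where limma called them, and bars are list medians. Most genes lie near 0, and the called genes farthest from 0 are PLK2 (1.76) and FOXO1 (-1.09) between the hairpin groups.

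Of 8 other stress genes, 1 was lower in each of the 3 comparisons, with medians of -0.15, -0.25 and 0.069. ATF3 was that gene on the shGATA3-labelled arrays against both other groups. TRIB3, a pseudokinase induced by the unfolded protein response, fell on the shTCF1 arrays, where it read 11.30 and 11.48 against 12.06 and 12.18 in control (-0.73, limma adjusted p = 0.0144; kept in 3 of 6 fits without 1 array). DDIT3 and PPP1R15A, once named GADD153 and GADD34 but not related to the family in sequence, were not called: DDIT3 differed from control by 0.037 and -0.15 and PPP1R15A by 0.15 and 0.32, for the shGATA3-labelled arrays and the shTCF1 arrays. DDIT4, named after its values were seen, differed by -1.18 and -1.27 from control arrays that themselves lay 10.54 and 11.44 apart, and was not called (limma adjusted p = 0.101 and 0.0563).

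Among 8 tested DNA demethylation partners, 1 was lower on the shTCF1 arrays, and 0 were called by limma in the other comparisons, where 2 (arrays labelled shGATA3 against control) and 1 (between the hairpin groups) had an unadjusted p below 0.05. The gene that fell was MBD4, a mismatch glycosylase, at 9.76 and 9.79 against 10.26 and 10.19 in control (-0.45, limma adjusted p = 0.0312; kept in 2 of 6 fits without 1 array). The medians were -0.031, 0.0014 and 0.11.

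Of 13 listed genes of the interferon-gamma arm, in which GADD45B and GADD45G take part in T cells, 6 passed the filter on dim probes, as did 73.7% of all named genes. These were IL12RB1, IL18RAP, CCL4, TBX21, MAP3K4 and MAPK14, and IFNG, STAT4, EOMES, IL12RB2, IL18R1, CCL3 and CCL5 were not among them. Of those 6 only MAPK14, shared with the MAPK list, was called, on the shGATA3-labelled arrays. By limma 0 were called on the shTCF1 arrays (2 at an unadjusted p below 0.05) and 0 between the hairpin groups (1 unadjusted). The medians were -0.17, 0.0054 and -0.20. TBX21 passed the filter through the shTCF1 group alone, where its level was highest. Its spots in both other groups were too dim to pass. The size of its differences is therefore uncertain, and they are part of these counts and medians.

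All 50 listed components of the mitochondrial large ribosomal subunit, to which GADD45GIP1 belongs, were tested. On the shGATA3-labelled arrays 1 was higher (MRPL2, 0.52, limma adjusted p = 0.0499) and 1 lower (MRPL42, -0.48, adjusted p = 0.0426) than in control. Both calls were lost on leaving out any 1 array (adjusted p from 0.0777 to 0.256 for MRPL2 and from 0.0678 to 0.210 for MRPL42). On the shTCF1 arrays 2 were higher (MRPL2, 0.84; MRPL10, 0.48) and 1 lower (MRPL42, -0.41), of which only MRPL2 was called in 5 of the 6 fits without 1 array, and between the hairpin groups limma called 0, with 6 at an unadjusted p below 0.05. The medians were 0.052, -0.09 and 0.071.

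The matrix of log2 values that was deposited with the arrays did not give the same values for every GADD45 probe. On the control replicate 2 column it held 8.30 for GADD45A, 5.14 for GADD45B and 5.19 for GADD45G, where the scanner file of that array normalized to 11.47, 10.11 and 7.12. Over probes this column had a Pearson r of 0.76 with the array it is named for, whereas the other 5 columns had 0.988 to 0.999. By deviations from each probe's mean over the arrays, each shTCF1 column was closest to its own array (r 0.502 and 0.546), but each shGATA3 column was closer to the array of the other replicate (0.531 against 0.258, and 0.342 against 0.317). The control replicate 1 column was closer to the replicate 2 array (0.48 against 0.38), and the control replicate 2 column had 0.0501 with its own array and at most 0.0699 with any. With all 6 columns GADD45A and GADD45B came out higher in both hairpin groups than in control, and limma called 0 probes in every comparison (1819, 2660 and 1644 at an unadjusted p below 0.05). The means of GADD45G kept their order, with differences of 5.22 and -0.85 from control. The results above therefore rest on the scanner files.

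**Figure D5:**
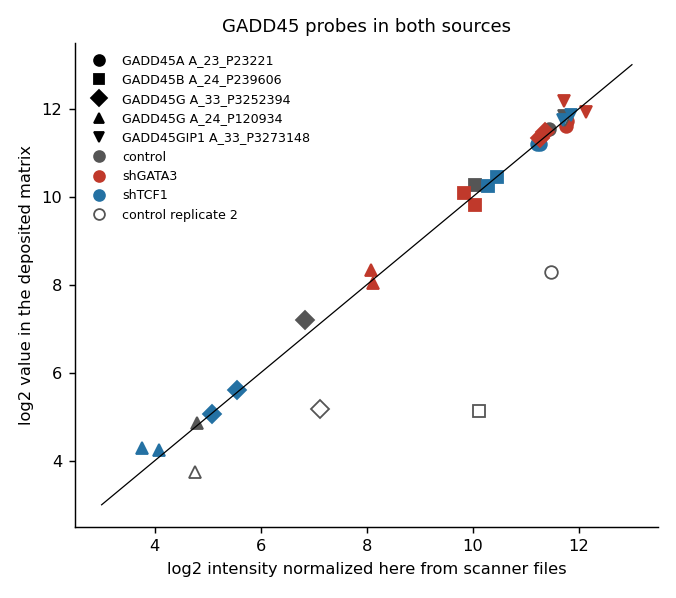
Log2 value in the deposited matrix (y axis) against the log2 intensity normalized from the scanner files (x axis) for the 5 GADD45 probes on 6 arrays; colours are groups, shapes are probes and the line marks equal values. The open symbols of control replicate 2 lie below the line for GADD45A, GADD45B and both GADD45G probes, at 8.30, 5.14, 5.19 and 3.75, and the other arrays lie closer to it.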

How the data were processed

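Total RNA (100 ng) from each of 6 samples was labelled and hybridised to a custom 1-colour Agilent array. Per the file headers, Agilent Feature Extraction 10.7.1.1 made the deposited intensity values by background subtraction, with no scaling between arrays (the submitters' processing notes list version 9.1). A log2 matrix deposited by the authors was VSN-normalized according to the study's methods. It was used only as an alternative, and 0 of its sample columns were left unassigned. Its column medians were 4.94 to 5.11, and how its columns were scaled and centred was not stated.

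Control spots and outlier spots were left out (71 probes). Spots of a probe were averaged and normalized with the VSN model, written anew in R 4.3.3 (trimming quantile 0.9, 7 iterations, 5 strata). A probe was tested if some group had it well above background in both replicates, which left 31183, with limma 3.58.1 in 1 fit over the 3 groups (3 residual and 2.97 prior degrees of freedom, two-sided, Benjamini-Hochberg adjustment, threshold 0.05). SDs are over 2 arrays. For a gene with several tested probes the brightest on average stood for it, and the second GADD45G probe is given too. In simulated arrays for shTCF1 against control with 27311 probes, limma called 29% of 2-fold and 96% of 4-fold changes of 100 each, and 8.76% of calls were false. The number of arrays limits the precision.

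The members, gene lists, tests and alternatives were chosen with earlier results of these data known. Named genes were all members, the targeted genes, the list genes called in a comparison (at most the 4 with the largest differences per list and comparison), the genes with a direct tie to a member, and the 5 genes most correlated with GADD45G and 3 with each other member. Values of 1 of the listed genes are not reported here. No shared effect of the replicate number was seen (correlations of replicate differences -0.040, -0.010 and 0.048). Whether samples of the same number were paired by design is not stated in the labels. Promoter windows came from a RefSeq table of GRCh38.p14, which has none for GADD45A; the scanner files name hg19, so no array coordinates are given. Alternatives were other scalings, filters, fits and left-out arrays.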

Additional observations from a re-analysis of the deposited data

Results flagged for a closer look

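Listed here are the GADD45 genes, and the genes of the lists around them, whose values lay on opposite sides of the control arrays in the 2 hairpin groups on every array. Of all 14533 named genes tested 7.40% did so, as did 12 of 114 list genes. Both groups were set against the same control arrays. For GADD45G the differences were 4.34 on the arrays labelled shGATA3 and -1.66 on the shTCF1 arrays, and their difference was not tested because the gene was chosen for its rise. For GADD45A they were 0.32 and -0.21, with the hairpin groups differing by 0.53 (limma adjusted p = 0.0328). For GADD45B they were -0.14 and 0.30, with a difference of -0.44 that did not pass (limma adjusted p = 0.104); its shGATA3-labelled replicate 2 and control replicate 1 read 10.0439 and 10.0445.

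Of the list genes, PLK2 differed by 0.83 and -0.93, ZMAT3 by 0.33 and -0.49, FOXO1 by -0.58 and 0.51, SMAD3 by -0.50 and 0.40, and ATF3 by -0.61 and 0.12, for the arrays labelled shGATA3 and the shTCF1 arrays. These 5 were named in the text because limma called them in some comparison, and all 5 were called between the hairpin groups. That is 5 of the 12 list genes on opposite sides, beside 502 of 1075 among all named genes on opposite sides.

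The other 7 list genes were not called between the hairpin groups (limma adjusted p from 0.0813 to 0.241). BAX differed from control by -1.20 and 0.22, BBC3 by -0.51 and 0.32, FDXR by 0.13 and -0.31, MRPL14 by 0.27 and -0.20, MRPL20 by 0.17 and -0.19, MRPL35 by 0.070 and -0.16, and MRPL41 by 0.26 and -0.13, in the same order of groups.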

How the results depend on the processing

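From the scanner files, the sign of each GADD45A, GADD45B and GADD45G difference was kept under all 15 alternatives, and that of GADD45GIP1 under 14. All of these alternatives scaled the arrays to each other. Those that change only the filter, the model of the spread or arrays outside a comparison cannot change its difference. The replicate block, balanced over the groups, and the fit of only the 4 arrays cannot either. For these alternatives a kept sign is no check. Scaling by the 75th percentile moved the GADD45A difference of shGATA3-labelled arrays from control to 0.37 and normexp on the median signal moved it to 0.25. Normexp also moved the GADD45G difference to 3.83 against control and 4.70 against shTCF1. The GADD45A difference between the hairpin groups, 0.53, was no longer called with no filter on dim probes (adjusted p = 0.0575), with the replicate block (adjusted p = 0.0673) or with only the 4 arrays of both groups (adjusted p = 0.0835). With an intensity trend, the GADD45B difference of -0.44 was called (adjusted p = 0.0317).

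Leaving out 1 array at a time, where a lone array is taken to vary like the others, gave ranges for GADD45A of 0.30 to 0.33 against control on the shGATA3-labelled arrays, -0.24 to -0.19 for shTCF1 and 0.50 to 0.55 between the hairpin groups. The ranges for GADD45B were -0.25 to -0.032, 0.21 to 0.38 and -0.55 to -0.33, and for GADD45G 4.19 to 4.48, -1.90 to -1.42 and 5.76 to 6.23. For GADD45GIP1 they were -0.015 to 0.40, -0.025 to 0.13 and -0.067 to 0.35, each with a change of sign. Leaving out either array of the group outside a comparison gives the same fit as only the 4 arrays compared. The 6 fits of a comparison are therefore not all separate. The number of probes called ranged from 437 to 1454, 878 to 4918 and 701 to 1216. The lowest counts came without control replicate 1, again without it, and without replicate 2 of the shGATA3-labelled arrays. The cause was not tested.

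For the shGATA3-labelled arrays against control, 2126 probes were called, against 4281 with normexp, 3904 with an intensity trend, 560 with no filter on dim probes and 1318 with the replicate block. With no filter on dim probes, 2272 were called in place of 5271 for shTCF1 against control. Between the hairpin groups, 1929 became 3283 with normexp, 3275 with an intensity trend, 901 with no filter and 1216 with only the 4 arrays. No shared effect of the replicate number was seen, and beside the values above the replicate block changed no call of a GADD45 gene. Slide and scan could not be used as a block, because all arrays shared 1 slide and 1 scan.

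The deposited matrix gave 0 called probes in each comparison. There GADD45A differed from control by 1.75 and 1.28 in the hairpin groups, which for shTCF1 is the reverse sign, and between them by 0.47 (not called). GADD45B differed by 2.24 on the shGATA3-labelled arrays, also reversed, and GADD45G by 5.22 and -0.85 (shTCF1 adjusted p = 0.55). ATF3 reversed to 2.92 on the shGATA3-labelled arrays and 1 TCF7 probe to 1.24 on the shTCF1 arrays. Without control replicate 2 in the deposited matrix, an alternative added after seeing the data, GADD45A differed by 0.13 on the shGATA3-labelled arrays and by 0.47 between the hairpin groups (not called), GADD45B by -0.32 on the shGATA3-labelled arrays, GADD45G by -1.85 for shTCF1 (adjusted p = 0.113) and GADD45GIP1 by -0.039 for shTCF1, with 0, 0 and 553 probes called. The GATA3 difference on its own arrays reversed to 0.00047 under scaling by the 75th percentile.

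With 2 arrays in each group, limma called 29% of simulated 2-fold changes, so differences of the size of those of GADD45A and GADD45B can be missed. The simulation changed only 200 of 27311 probes, whereas 16.9% of tested probes were called for shTCF1 against control. Its rate of calls therefore need not hold for these arrays. The second GADD45G probe was at background on the shTCF1 arrays, which limits its difference to a bound that holds on the VSN scale only.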
